A study of Mus musculus with 4 samples.

Results

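The cytosolic ribosomal protein genes encode the proteins of the cell's main ribosome, and their levels were compared between rd7 and wild-type mouse retinas. The members were chosen by symbol. A row of the deposited table was taken when its symbol was Rpl or Rps followed by a number, or was Rplp0, Rplp1, Rplp2 or Rpsa, when its estimate was marked as successful in all 4 libraries, and when its mean level was at least 1 FPKM. FPKM, fragments scaled by transcript length and by the mapped fragments of the library, is a level per length, so genes can be set side by side on it. Of 87 matching symbols, 84 passed, among 12655 genes tested by the same criteria and 22095 rows in all. They are 35 symbols of the small subunit (Rps) and 49 of the large subunit (Rpl). The choice used no difference between genotypes. Rpl10l was listed at 0 in all 4 libraries, and Rpl39l (mean 0.105 FPKM) and Rpl3l (mean 0.138 FPKM) were below the minimum, while the lowest member, Rpl21, had a mean of 3.01 FPKM. By its letters the rule also took Rps19bp1, which encodes a protein that binds Rps19 and is not part of the ribosome, and Rps19-ps3, a pseudogene. Without them 82 members were left. These still include Rps4y2, which RefSeq lists as a transcribed pseudogene and GENCODE vM1 as protein-coding.

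The retina of the rd7 mouse, which carries a mutation in Nr2e3, was compared with that of C57BL/6J mice, and the labels give C57BL/6J as the strain of both. Nr2e3 is a nuclear receptor that represses cone genes in developing rods. All animals were 3 weeks old, and 2 libraries were sequenced for each genotype. Each library held 8 pooled retinas from 2 females and 2 males, so the spread within a genotype is a spread between pools, and the whole retina with all of its cell types was measured.

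A ribosome joins a small subunit, which reads the messenger RNA, to a large subunit, which forms the peptide bond. Each subunit holds 1 copy of most of its proteins, and the genes are transcribed at high levels in nearly every cell. Their messenger RNAs belong to the TOP class, which begins with a C followed by a run of pyrimidines, and the mTOR pathway controls the translation of that class. Most of these genes also left processed pseudogenes, intronless copies made from their messenger RNA, elsewhere in the genome.

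The bases around the annotated starts were read for such a run. Start sites of 60 of the 81 members looked up were found in RefSeq (GRCm38.p6), leaving out Rps19bp1, Rps19-ps3 and Rps4y2. In the window of 30 bases centred on the annotated start, a run of at least 8 C or T bases was present in 27 of these 60 genes (45.0%). It was present in 13.9% of all 27025 genes in the same table, in 4 of 12 TOP messenger RNAs of other families, and in 9 of 69 mitochondrial ribosomal protein genes (13.0%), whose products serve a separate ribosome. The windows of 8 members that differed between genotypes are printed below, with the longest run of C and T on the coding strand in capitals, because they show how far the length of the run varies among such genes. The first 4 were lower and the last 4 higher in rd7.
Rps27: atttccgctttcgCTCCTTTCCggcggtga
Rpl28: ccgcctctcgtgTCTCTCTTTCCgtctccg
Rps19: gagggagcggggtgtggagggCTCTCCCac
Rps15: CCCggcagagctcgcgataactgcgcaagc
Rpl15: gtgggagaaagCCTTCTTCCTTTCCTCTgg
Rplp0: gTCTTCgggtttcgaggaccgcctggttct
Rps4x: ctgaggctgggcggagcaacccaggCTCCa
Rpl10: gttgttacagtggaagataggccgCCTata
In GRCm38.p6 these windows lie at chr3:90213634-90213663 (minus strand) for Rps27, chr7:4792950-4792979 (plus) for Rpl28, chr7:24884898-24884927 (plus) for Rps19, chr10:80292416-80292445 (plus) for Rps15, chr14:18270972-18271001 (minus) for Rpl15, chr5:115559452-115559481 (plus) for Rplp0, chrX:102189377-102189406 (minus) for Rps4x and chrX:74270801-74270830 (plus) for Rpl10. The longest run was 17 bases in Rpl15, 11 in Rpl28, 9 in Rps27, 7 in Rps19, 5 in Rplp0, 4 in Rps4x, and 3 in both Rps15 and Rpl10. A run of at least 8 bases was present at 4 of the 10 starts found for members lower in rd7, at 2 of 8 for members higher in rd7, and at 21 of 42 for members with no call. These are annotated starts of another genome build than the one the reads were mapped to, and a start that is a few bases off would move the run out of the window.

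Ribosomal protein genes were among the highest in the retina. The median member was at 238 and 253 FPKM in the rd7 retinas and at 249 and 252 FPKM in the wild-type retinas, while the median over all genes tested, taken on the mean of the 4 libraries, was 10.3 FPKM. Of the 84 members, 61 had a mean between 100 and 500 FPKM and 7 were above that range. The 5 highest were Rps29 (mean 1166 FPKM), Rplp1 (1059), Rpl41 (996.6), Rps21 (616) and Rps15 (600.4). Rps29 is a small zinc-binding protein, Rpl41 is among the shortest proteins of the cell, and Rplp1 belongs to the stalk that receives the translation factors. These 5 genes held between 18.7 and 19.8% of the FPKM summed over all members.

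**Figure D1:**
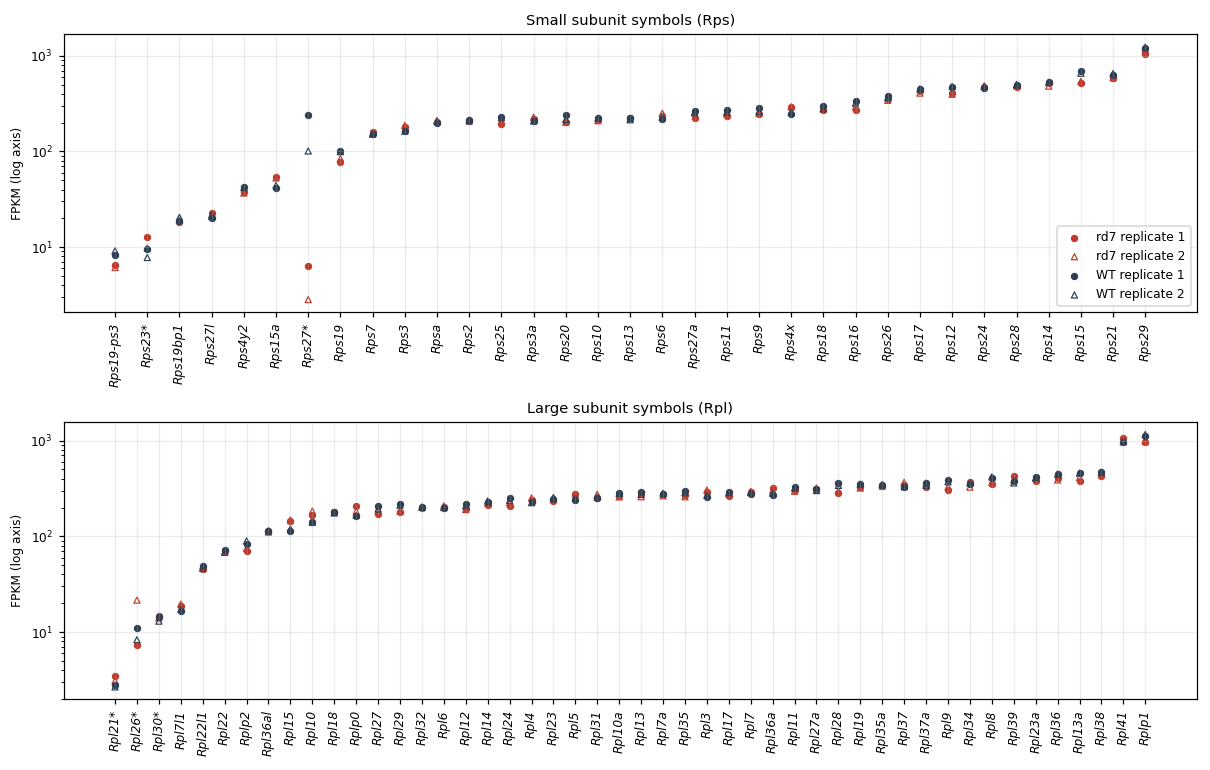
FPKM of 81 of the 84 members in each library on a log axis, small subunit symbols above and large subunit symbols below, ordered by their mean. Red marks are rd7 and dark marks wild-type, circles replicate 1 and triangles replicate 2, and an asterisk marks the members with a second row at their locus. Most members lie between 100 and 500 FPKM with all 4 marks close together, while Rps27 is split between genotypes and Rpl26 between libraries.

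At the other end, 9 members had a mean under 25 FPKM. Rps19bp1, Rps19-ps3, Rpl7l1 and Rps27l are no standard ribosomal proteins or are paralogs. The other 5, among them Rpl21, Rps23, Rpl26 and Rpl30, are core proteins of the ribosome. Each of these 5, and Rps27 with them, shares its locus with a second row of the table that carries the name of another gene (Gm and a number) and was listed at a far higher FPKM. The second rows of 5 of these 6 genes had the status LOWDATA in every library and so lie outside the genes tested. The exception was Gm12191, at the locus of Rpl30, which was tested as a gene of its own.

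For Rpl21, which lies on chromosome 5 of mm9 from 147644466 to 147648606, the member's row had 3.46 and 3.10 FPKM in rd7 and 2.79 and 2.68 in wild-type retinas. The second row, Gm10240, lies within that interval from 147644728 to 147647558 and had 331 and 321 FPKM in rd7 and 334 and 338 in wild-type retinas. The row named Rpl21 thus held about 1% of the FPKM listed at its own locus, between 0.787 and 1.03% over the 4 libraries. The share held by the member's row was 3.22 to 3.94% for Rpl30, 3.06 to 8.73% for Rpl26 and 8.53 to 15.9% for Rps23. With both rows added, the 6 loci had means from 86.2 FPKM (Rps23) to 705 FPKM (Rps27), and none was left under 25 FPKM. In RefSeq and in the annotation of mm9, genes with these names lie on other chromosomes than the members, and RefSeq lists 5 of the 6 as pseudogenes. The other, Gm9846, is a synonym of Rps27rt in RefSeq, a protein-coding gene on chromosome 9.

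The largest difference in the whole set belonged to one of these split loci. Rps27, which encodes a zinc-finger protein of the small subunit, is on chromosome 3 (mm9, 90016590 to 90017570). Its row had 6.27 and 2.83 FPKM in rd7 and 243 and 101 FPKM in wild-type retinas, so the genotypes did not overlap, and the libraries of each genotype also differed from each other by more than 2-fold. The log2 difference was -5.18 (standard error 0.50, limma adjusted p = 0.00149), the lowest among all 12655 genes. If the lowest FPKM values of long genes are the worth of 1 read, the 345 annotated exonic bases of Rps27 held about 76.8 and 34.3 reads in rd7 and 2963 and 1244 in wild-type retinas.

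The second row at this locus, Gm9846, starts at the same base as Rps27 and ends 1 base before it. It had 648 and 639 FPKM in rd7 and 532 and 650 FPKM in wild-type retinas, and its lowest value stood beside the highest value of Rps27, in wild-type replicate 1. With both rows added, the locus had 654 and 642 FPKM in rd7 and 774 and 752 FPKM in wild-type retinas. Still the genotypes did not overlap, and the libraries of a genotype now lay close together. The log2 difference of the sum was -0.24 (standard error 0.05, limma adjusted p = 0.0128), which is a level 0.849 times that of wild-type. The row of Rps27 held 0.959 and 0.441% of the sum in rd7 and 31.3 and 13.5% in wild-type retinas. The second row carries no successful status, and whether the same reads were split between both rows cannot be seen in the table. The value of -5.18 describes the row named Rps27, while the FPKM listed at the locus differed by -0.24.

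**Figure D2:**
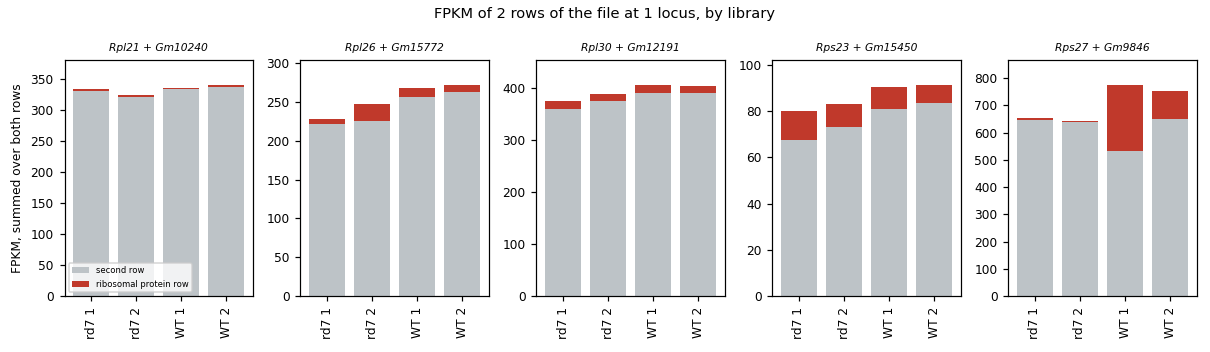
FPKM in each library for 5 of the 6 loci where a ribosomal protein gene and a row named Gm and a number overlap, with the second row in grey and the ribosomal protein row in red on top. Each panel has its own axis from 0. At Rps27 the red part is 0.959 and 0.441% of the bar in rd7 and 31.3 and 13.5% in wild-type, while the whole bars run from 642 to 774 FPKM.

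Rps27l is a paralog of Rps27 and a member too. Its row had 22.7 and 20.8 FPKM in rd7 and 20.3 and 21.6 FPKM in wild-type retinas, which overlap (log2 difference 0.05, standard error 0.07). The coding sequences of both genes are 255 bases long, and 61 bases differ (76.1% identity), so that no window of 50 bases, the length of a read here, is shared between them. They are printed as annotated in GENCODE vM1 (mm9), with the bases that differ in capitals, because the spacing of the capitals shows that a read of either coding sequence can be told from the other.
Rps27: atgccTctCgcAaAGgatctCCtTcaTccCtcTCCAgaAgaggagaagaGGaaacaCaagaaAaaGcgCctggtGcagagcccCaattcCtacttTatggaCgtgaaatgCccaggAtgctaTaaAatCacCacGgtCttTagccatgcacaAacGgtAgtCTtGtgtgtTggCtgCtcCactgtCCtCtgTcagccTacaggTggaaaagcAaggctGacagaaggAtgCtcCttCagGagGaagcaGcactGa
Rps27l: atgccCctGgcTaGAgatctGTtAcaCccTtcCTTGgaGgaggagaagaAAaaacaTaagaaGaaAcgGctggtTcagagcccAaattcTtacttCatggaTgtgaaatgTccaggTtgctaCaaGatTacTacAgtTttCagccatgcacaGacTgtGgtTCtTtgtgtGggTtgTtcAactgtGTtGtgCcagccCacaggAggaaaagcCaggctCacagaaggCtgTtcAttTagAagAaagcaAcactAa
In contrast, every window of 50 bases of the Rps27 coding sequence occurred exactly at other places of mm9, 11 places in all, against 49.0% of windows and 4 places for Rps27l.

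Such copies are a property of the whole family. A coding sequence was available for 82 members, with lengths from 156 to 1260 bases. In 80 of them at least 1 window of 50 bases recurred elsewhere in the genome, in 28 every window did, and the median member had 90.0% of its windows and 9 places elsewhere. Rps19bp1 was among the 2 that had none. Rpl7a had the most places (128), followed by Rpl29 (90) and Rpl21 (86). In mitochondrial ribosomal protein genes a recurring window was found in 26 of 76, and the median gene had no such window. Across members, the mean FPKM had no rank relation to the number of places elsewhere (Spearman correlation 0.0039, n = 82 genes, which are not independent replicates), and the correlation was 0.16 for the log2 difference. Rows of the table other than the second rows also held such copies within their exons. One of them, Gm5148, covers 90.6% of the windows of Rps23 and had 94.7 and 107 FPKM in rd7 and 95.3 and 95.0 FPKM in wild-type retinas, above every value of the row named Rps23 (7.78 to 12.7 FPKM). How reads that match several places were counted is not given in the sources used here for these tables.

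Over all genes tested, 37.6% were called higher and 8.8% lower in rd7 at an FDR of 5%, and the median log2 difference (rd7 minus wild-type) was 0.15. The table holds no read counts, and the lowest values point to between 35153620 and 35600881 reads per library if their step is 1 read. Nr2e3 itself was listed at 2493 and 1589 FPKM in rd7 and 385 and 394 FPKM in wild-type retinas, reads of a mutated gene included. Markers of cones summed to 3295 to 3582 FPKM in rd7 and 1009 to 1043 FPKM in wild-type retinas (5 of 7 higher), and those of rods to 7716 to 8428 and 10545 to 10756 FPKM (3 of 6 tested lower). Müller cell markers were at 1418 to 1462 and 1252 to 1287 FPKM (4 of 6 higher), and markers of pigment epithelium at 57.3 to 62.1 and 21.6 to 35.7 FPKM (4 of 5 tested higher). Microglia markers were at 18.3 to 22.8 and 16.2 FPKM (2 of 5 tested higher), lens markers at 17.2 to 38.8 and 30.8 to 67.1 FPKM (0 of 4 called by limma, 0 lower at an unadjusted p under 0.05), and blood markers at 76.8 to 161 and 271 to 317 FPKM (3 of 5 tested lower). No marker tested was at 0 in all libraries. Their part in the differences of ribosomal protein genes was not tested, and in whole retinas fewer cells of a type and less RNA per cell cannot be told apart.

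Among the 84 ribosomal protein genes, 9 were higher (10.7%) and 17 were lower in rd7 (20.2%), beside 37.6% and 8.8% of all genes tested (46.4% in either direction), and 58 were not called. Their differences were small and lay within a narrow range. The median log2 difference was -0.06 with an interquartile range of 0.20, while over all genes tested the interquartile range was 0.39. A similar range was found in the lists of ribosome assembly (0.18), other TOP messenger RNAs (0.21), mitochondrial ribosomal proteins (0.23) and other translation factors (0.25). In the list of mTOR control it was 0.41. Both rd7 values lay below both wild-type values in 42 members (all genes tested 19.5%) and above them in 21 members (all genes tested 57.1%), and 71 of 84 members lay under the median of all genes. The replicates of these genes agreed closely, with a median gap between the libraries of a genotype of 0.06 on the log2 scale in rd7 and 0.04 in wild-type retinas. In all genes tested with a mean of 100 FPKM or more these gaps were 0.08 and 0.04. Rps27 and Rpl26 were the members with a gap over 0.5. Without Rps19bp1 and Rps19-ps3 the counts were 9 higher and 16 lower, and with the second rows added they were 9 and 19.

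The balance of higher and lower members moved with the scaling. With median-ratio scaling, which sets the median gene to be equal between libraries, 2 members (Rpl15 and Rps15a) were higher and 48 lower, beside 19.7% and 19.6% of all genes. With each library rescaled to the same sum, 3 were higher and 36 lower, beside 3341 and 1710 of the 12655 genes tested. With quantile normalization 5 were higher and 27 lower, beside 2350 and 2404 of the genes tested. With an adjustment of each library for exonic GC content and exon length (splines fitted over all genes), 1 was higher and 17 were lower (12.4% and 15.0% of all genes), and 7 of these 17 were also lower without the adjustment. The calls that held under it were that of Rplp0 as higher and, among the lower ones, those of Rps27, Rps19, Rps25, Rpl9, Rplp2 and Rpl13a. The median of the members was below zero and below the median of all genes under each of these scalings, by 0.08 to 0.21 on the log2 scale. The calls of members, like those of all genes tested, changed when a library was left out. The median log2 difference of the members stayed below zero. It was -0.062 without wild-type replicate 1 and -0.061 without wild-type replicate 2, beside -0.064 with all 4 libraries. Without rd7 replicate 1 it was -0.048, and without rd7 replicate 2 it was -0.072. In these fits the genotype with 1 library left is assumed to vary like the other, so nothing is concluded from their calls.

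**Figure D3:**
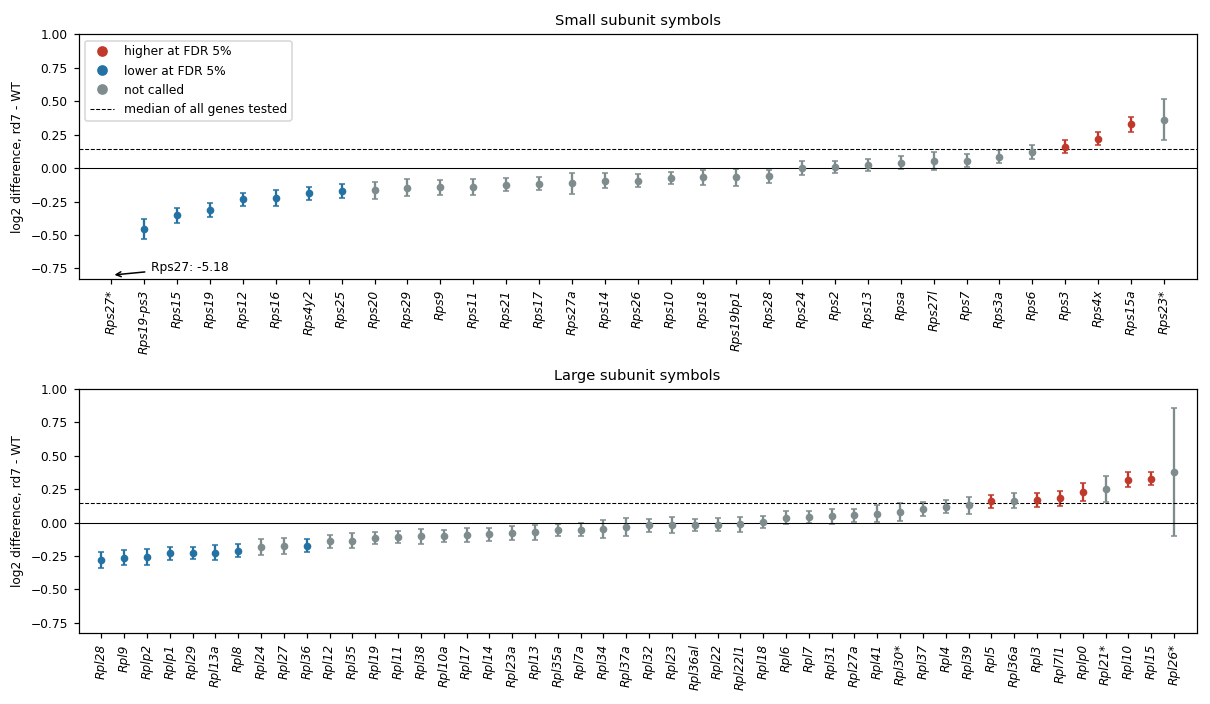
Log2 difference of FPKM between genotypes (rd7 minus wild-type) with its standard error from limma for 81 of the 84 members, small subunit above and large subunit below, in order of size. Red members were higher and blue members lower at an FDR of 5%, the dashed line is the median of all genes tested (0.15), and an asterisk marks members with a second row at their locus. Rps27 lies off the axis at -5.18, and most other members lie between -0.4 and 0.4, the majority under the dashed line.

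In the small subunit, 3 of 35 members were higher and 9 lower, with a median log2 difference of -0.09. Apart from Rps27, the lowest ribosomal protein was Rps15, which sits in the head of the small subunit near the decoding site. Rps15 (chromosome 10 of mm9, 79755176 to 79756858) had 515 and 540 FPKM in rd7 and 689 and 658 FPKM in wild-type retinas. The groups are well apart for this abundant gene, with a log2 difference of -0.35 (standard error 0.05, limma adjusted p = 0.005).

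Rps19, whose human counterpart is mutated in Diamond-Blackfan anaemia, lies on chromosome 7 from 25669733 to 25674821. Rps19 had 78.0 and 84.2 FPKM in rd7 and 102 and 99.6 FPKM in wild-type retinas, a log2 difference of -0.31 (standard error 0.06, limma adjusted p = 0.00745). The pseudogene Rps19-ps3, on chromosome 4 from 147195886 to 147196311, moved in the same direction, with 6.54 and 6.11 FPKM in rd7 and 8.32 and 9.12 FPKM in wild-type retinas (log2 difference -0.46, limma adjusted p = 0.00623). Of the 389 windows of the Rps19 coding sequence, 93 (23.9%) occur exactly in Rps19-ps3, so these rows may not be independent measurements. Among the other small subunit genes called lower were Rps12, Rps16, Rps25 and Rps4y2, with log2 differences from -0.23 to -0.17.

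Of the small subunit genes that were higher, Rps15a lies on chromosome 7 from 125247890 to 125259661. Rps15a had 54.5 and 52.8 FPKM in rd7 and 41.4 and 44.1 FPKM in wild-type retinas, a log2 difference of 0.33 (standard error 0.05, limma adjusted p = 0.00601). Rps15a was thus higher while Rps15, which encodes an unrelated protein in spite of its name, was lower. Neither of these calls held under the GC and length adjustment. Over the alternative settings the log2 difference ranged from 0.04 to 0.37 for Rps15a and from -0.51 to -0.15 for Rps15. Rps4x, the X-linked gene of a core protein, had 294 and 293 FPKM in rd7 and 245 and 259 FPKM in wild-type retinas (log2 difference 0.22, limma adjusted p = 0.0168). Rps3, at the entry of the messenger RNA channel, had 180 and 187 FPKM against 164 and 163 FPKM, a log2 difference of 0.16. The sign of the Rps3 difference turned under the GC and length adjustment (-0.09).

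In the large subunit, 6 of 49 members were higher and 8 lower, with a median log2 difference of -0.03. The lowest was Rpl28, on chromosome 7 from 4744567 to 4746149. Rpl28 had 281 and 301 FPKM in rd7 and 364 and 341 FPKM in wild-type retinas (log2 difference -0.28, standard error 0.06, limma adjusted p = 0.0149). Rpl9 was close to it, with 307 and 328 FPKM in rd7 and 390 and 371 FPKM in wild-type retinas (log2 difference -0.26). Rpl29, Rpl13a, Rpl8 and Rpl36 were also lower, by log2 differences from -0.23 to -0.17, and Rpl8 was among the members with the fewest copies (8.83% of its windows, at 1 place).

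The highest called large subunit genes were Rpl15 and Rpl10. Rpl15 (chromosome 14, 19100337 to 19103500) had 146 and 148 FPKM in rd7 and 115 and 119 FPKM in wild-type retinas, a log2 difference of 0.33 (standard error 0.05, limma adjusted p = 0.00418). Rpl10, which joins the large subunit late in its assembly, had 169 and 183 FPKM in rd7 and 142 and 140 FPKM in wild-type retinas (log2 difference 0.32, standard error 0.06, limma adjusted p = 0.00726). In both genes all coding windows recur elsewhere, at 23 places for Rpl15 and 15 for Rpl10, and the only other row at these loci was the small nucleolar RNA Snora70, within Rpl10.

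Rpl3, which reaches into the peptidyl transferase centre, had 289 and 305 FPKM in rd7 and 260 and 268 FPKM in wild-type retinas. Its log2 difference was 0.17 (limma adjusted p = 0.0419) and ranged from 0.01 to 0.21 over the alternative settings. Rpl3 was not called under median-ratio scaling, quantile normalization, equal library sums or the GC and length adjustment. Rpl5, which carries the 5S ribosomal RNA, had 274 and 271 FPKM against 240 and 249 FPKM (log2 difference 0.16). Under the GC and length adjustment Rpl5 was called in the other direction (-0.17, limma adjusted p = 0.0409), so the direction of the Rpl5 difference depends on that step. Rpl5 falls outside the rule for named genes and was added after its values were seen.

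The stalk of the large subunit is built from Rplp0, which anchors it to the ribosome, and from dimers of Rplp1 and Rplp2. These 3 genes did not move together. Rplp0 was higher, with 205 and 182 FPKM in rd7 and 163 and 166 FPKM in wild-type retinas, a log2 difference of 0.23 (standard error 0.07, limma adjusted p = 0.0349). Rplp1 had 971 and 978 FPKM in rd7 and 1127 and 1159 FPKM in wild-type retinas, a log2 difference of -0.23 (standard error 0.05, limma adjusted p = 0.0149). Rplp2 had 69.7 and 75.0 FPKM in rd7 and 83.4 and 89.5 FPKM in wild-type retinas, a log2 difference of -0.26 (standard error 0.06, limma adjusted p = 0.0197). In each of the 3 genes the genotypes did not overlap, as in most genes tested (57.1% with both rd7 values above, 19.5% with both below). Over the alternative settings the log2 difference of Rplp0 ranged from 0.08 to 0.32, that of Rplp1 from -0.39 to -0.02 and that of Rplp2 from -0.41 to -0.20, so that none changed its sign.

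Among the other highest genes, Rps29 had 1052 and 1165 FPKM in rd7 and 1213 and 1235 FPKM in wild-type retinas (log2 difference -0.14, limma adjusted p = 0.124). Rpl41 had 1068 and 972 FPKM in rd7 and 969 and 977 FPKM in wild-type retinas, which overlap (log2 difference 0.07). Rps21 had 591 and 589 FPKM in rd7 and 632 and 653 FPKM in wild-type retinas (log2 difference -0.12, limma adjusted p = 0.0867). None of the 3 passed the test.

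The members with the largest gap between the libraries of a genotype were Rpl26, Rps27 and Rps23, all with a second row at the locus. Rpl26, whose protein sits near the exit of the peptide tunnel, had 7.27 and 21.6 FPKM in rd7 and 11.1 and 8.33 FPKM in wild-type retinas. Its 2 rd7 values stand on either side of the wild-type values, with a log2 difference of 0.38 and a standard error of 0.48. With its second row added, Rpl26 had 228 and 248 FPKM in rd7 and 268 and 272 FPKM in wild-type retinas (log2 difference -0.18, limma adjusted p = 0.043). Rps23, a protein of the decoding centre, had 12.7 and 9.74 FPKM in rd7 and 9.59 and 7.78 FPKM in wild-type retinas (log2 difference 0.36, limma adjusted p = 0.101). With its second row added, Rps23 had 80.2 and 83.0 FPKM in rd7 and 90.3 and 91.2 FPKM in wild-type retinas (log2 difference -0.15, limma adjusted p = 0.0399). In both genes the sign turned when the second row was added.

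Some paralogs are named after another ribosomal protein gene, and their values were set beside those of the parents. Rpl36a on the X chromosome had 320 and 299 FPKM in rd7 and 270 and 282 FPKM in wild-type retinas (log2 difference 0.16, limma adjusted p = 0.0613). Its autosomal paralog Rpl36al, with 87.9% identity over the coding sequence, was at 111 to 115 FPKM in all 4 libraries (log2 difference -0.02). Rpl22 was at 68.3 to 71.4 FPKM and Rpl22l1 at 46.1 to 49.2 FPKM, with log2 differences of -0.02 and -0.01. Rpl7 had 289 and 295 FPKM in rd7 and 280 and 287 FPKM in wild-type retinas (log2 difference 0.04), and Rpl7l1 had 18.9 and 19.6 FPKM against 16.6 and 17.3 FPKM (log2 difference 0.18, limma adjusted p = 0.0405). Under the GC and length adjustment the signs of Rpl7 (-0.23), Rpl7l1 (-0.01) and Rpl36a (-0.04) turned, and that of Rpl7 also turned under median-ratio scaling (-0.11) and with equal library sums (-0.04). Rps4x was higher and Rps4y2, which RefSeq lists as a transcribed pseudogene, was lower (37.6 and 36.7 FPKM in rd7, 42.8 and 41.9 FPKM in wild-type retinas, log2 difference -0.19). Neither Rps4x nor Rps4y2 was called under the GC and length adjustment. Over the alternative settings the log2 difference ranged from 0.0066 to 0.26 for Rps4x and from -0.34 to -0.05 for Rps4y2. No window of 50 bases of coding sequence was shared within any of these pairs. Differences between paralog and parent were not tested.

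Summed over the members, ribosomal protein genes held 6.12 and 6.21% of all FPKM in rd7 against 6.98 and 6.84% in wild-type retinas. The genotypes did not overlap, but with 2 libraries each the exact two-sided permutation test cannot give a p under 0.333. The share held by the small subunit was 2.57 and 2.63% in rd7 and 3.05 and 2.96% in wild-type retinas, and that of the large subunit 3.55 and 3.57% against 3.93 and 3.89%. With the second rows added to both sums, the shares were 6.65 and 6.75% in rd7 and 7.55 and 7.45% in wild-type retinas. FPKM does not remove the composition of a library, and the FPKM of all genes summed to 365153 and 365024 in rd7 against 343767 and 345711 in wild-type retinas.

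The differences of the members went with their base composition, as did those of all genes tested. Exonic GC content, known for 83 members, ran from 42.7 to 61.0%. In the 27 members with the lowest GC content the median log2 difference was 0.05. In the middle 28 members it was -0.04, and in the 28 with the highest GC content it was -0.14. The rank correlation between GC content and log2 difference was -0.49 across the members and -0.44 across 12398 genes tested with a known GC content, a description across genes that share the same 4 libraries. The coding sequence alone gave -0.43 (n = 82). Coding length and log2 difference had a rank correlation of 0.23 across members. The part of GC content in the differences was not tested beyond the adjustment given above.

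**Figure D4:**
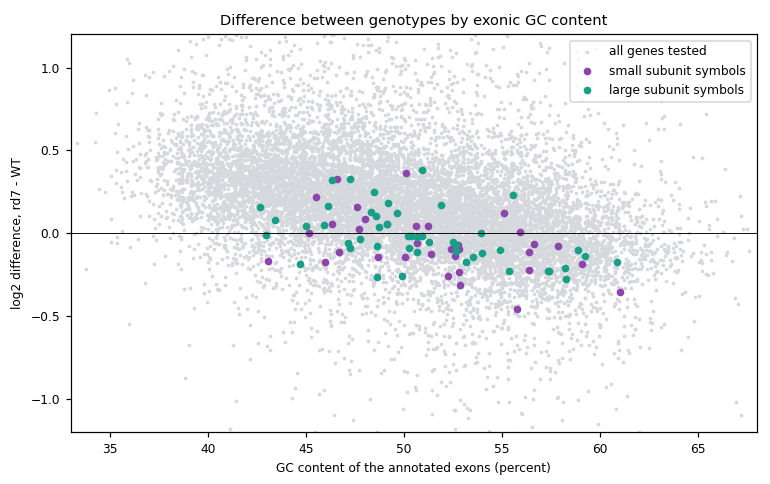
Log2 difference between genotypes (rd7 minus wild-type) against the GC content of the annotated exons, for genes tested (grey) and for members of the small (purple) and large subunit (green). The members lie along the lower side of the grey cloud and slope downward with it, with medians of 0.05, -0.04 and -0.14 from low to high GC content. Genes beyond the axes, Rps27 among them, are not drawn.

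Ribosomal proteins that carry other names were read beside the members. Fau encodes a ubiquitin-like protein fused to Rps30, and it had 359 and 370 FPKM in rd7 and 443 and 429 FPKM in wild-type retinas (log2 difference -0.26, limma adjusted p = 0.00952). Gnb2l1, the gene of the scaffold protein RACK1, had 189 and 192 FPKM against 185 and 190 FPKM (log2 difference 0.02). Its value was -0.13 under median-ratio scaling, -0.06 with equal library sums, -0.04 after quantile normalization and -0.23 under the GC and length adjustment (limma adjusted p = 0.0171).

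Genes of other families listed as TOP messenger RNAs, such as those of elongation factors, had a median log2 difference of 0.17. Of them, 11 of 18 were higher (61.1%) and 1 lower (5.6%), beside 37.6% and 8.8% of all genes tested. Hnrnpa1, an RNA-binding protein, had 72.6 and 83.3 FPKM in rd7 and 54.1 and 56.0 FPKM in wild-type retinas (log2 difference 0.50, limma adjusted p = 0.00459), and the histone chaperone Nap1l1 was higher by a log2 difference of 0.38. Tpt1, the translationally controlled tumour protein, was the 1 lower gene of this list, with 93.8 and 80.8 FPKM against 130 and 135 FPKM (log2 difference -0.60, limma adjusted p = 0.00314).

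Translation factors outside that list had a median log2 difference of 0.22, with 14 of 25 higher (56%) and 0 lower in limma (1 lower at an unadjusted p under 0.05). Eif1ax, which helps to find the start codon, had 48.0 and 51.6 FPKM in rd7 and 31.7 and 32.9 FPKM in wild-type retinas (log2 difference 0.62, limma adjusted p = 0.00134), and Eif4g2 was higher by a log2 difference of 0.41. Genes of ribosome assembly had a median of 0.10, with 7 of 30 higher (23.3%), among them Wdr12 (0.48) and Pes1 (0.34), which act in the maturation of the large subunit, and 1 lower, Rrp9 (-0.25). Genes of the mTOR control of translation had a median of 0.17, with 5 of 14 higher (35.7%), among them Eif4ebp2 (0.48), a repressor of cap-dependent translation, and Larp4 (0.38), and 1 lower, Akt1s1 (-0.23, 7.1%). All genes tested had a median of 0.15, with 37.6% higher and 8.8% lower, so the mTOR list lay near that background. The sign of Larp4 turned under the GC and length adjustment (-0.02).

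Mitochondrial ribosomal proteins had a median log2 difference of 0.02, with 9 of 76 higher and 9 lower (11.8% each), beside 37.6% and 8.8% of all genes tested. Mrpl49 (0.38) and Mrpl41 (0.35) were the highest and Mrpl54 (-0.43) and Mrpl14 (-0.39) the lowest of those called. Mrpl14 had 30.0 and 31.1 FPKM in rd7 and 40.0 and 39.9 FPKM in wild-type retinas. The median mitochondrial ribosomal protein gene was at 20.4 FPKM, against 252 FPKM for the cytosolic members. Differences between these lists were not tested, and the percentages of all genes tested remain the background against which each count is read.

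**Figure D5:**
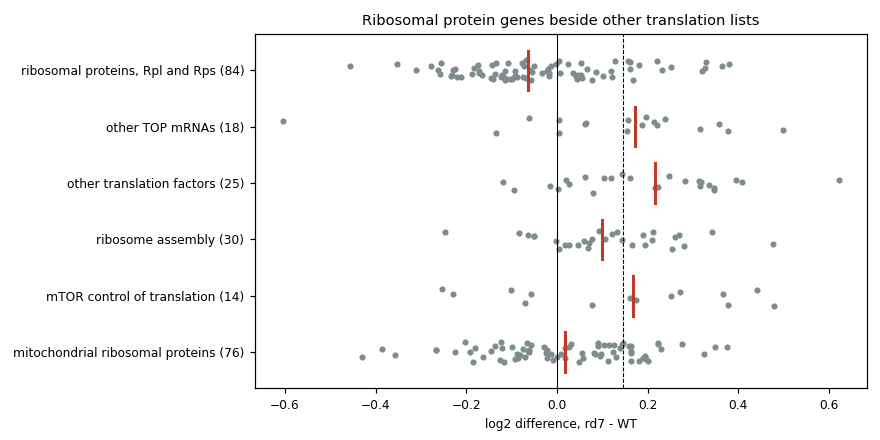
Log2 difference between genotypes (rd7 minus wild-type) of each tested gene in the ribosomal protein genes and 5 other lists of translation genes, with the number tested in parentheses. Grey points are genes, red bars list medians, the solid line is 0 and the dashed line the median of all genes tested (0.15). The medians run from -0.06 for the members to 0.22 for other translation factors, and Rps27 at -5.18 is not drawn.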

How the data were processed

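RNA of 2 rd7 and 2 wild-type retina libraries was sequenced by the authors as single reads of 50 bases, mapped to mm9 with TopHat 1.4.1 and quantified with Cufflinks 1.3.0. The deposited values are FPKM per gene and library, with a status for each, and hold no counts, so the depth of each library could only be estimated. A further deposited table of the authors' own comparison holds fold changes and p-values and was not used. Where the status was OK in all 4 libraries and the mean FPKM was 1 or more, log2(FPKM + 0.1) was tested two-sided by limma (version 3.58.1, R 4.3.3) with moderated variances that follow the level and without a block. P-values were adjusted over all 12655 genes by the method of Benjamini and Hochberg and called at an FDR of 5%. Differences on this scale understate those of low genes. The step was tested on simulated data (12655 genes), where 98.5% of 200 changed genes were recovered. All planted changes were larger than the log2 differences of the called members other than Rps27. The recovered share therefore does not speak to differences as small as theirs.

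Coding sequences, exonic length and GC content came from mm9 and GENCODE vM1, and copies were exact matches of 50-base windows on either strand outside the gene's own locus, joined to 1 place within 5000 bases. Starts came from RefSeq (GRCm38.p6). Other statistics used Python 3.11.15 and scipy 1.17.1. Members and lists were chosen with earlier results of these data known. The genes named were the 8 largest called rises and falls, the 5 highest levels, the 3 largest gaps between libraries, the stalk proteins, the paralogs with their parents, Fau and Gnb2l1, and up to 2 called rises and falls of each other list. Other genes were named after their values were seen. Some genes that these rules take are not reported here. Alternatives were each library left out, other scalings (median ratio, quantile, equal sums), an adjustment for GC content and exon length, other pseudocounts (1 and 0.01), other minimum levels (none, and 5 FPKM), variances without the trend, a stricter FDR (1%) and a block for the replicate number. Adding the second row at a locus, and leaving out Rps27 or Rps19bp1 and Rps19-ps3, were chosen after seeing the data.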

Additional observations from a re-analysis of the deposited data

How the results depend on the processing

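Members called higher and lower (9 and 17) were 1 and 2 without a filter on low FPKM and 3 and 4 at an FDR of 1%. Without a variance trend they were 4 and 12, and the share of all genes called in that fit is not given here. They were 2 and 48 under median-ratio scaling, 5 and 27 after quantile normalization, 3 and 36 with equal library sums, and 1 and 17 under the GC and length adjustment. The median log2 difference of all members, the small and the large subunit moved to -0.22, -0.25 and -0.19 under median-ratio scaling, -0.11, -0.13 and -0.088 after quantile normalization and -0.15, -0.18 and -0.12 with equal sums. It was -0.10 for all members and for the large subunit under the GC and length adjustment, and -0.074 and -0.055 when second rows were added. Leaving out each library gave 0 to 14 members higher and 1 to 30 lower, with medians from -0.072 to -0.048 for all members, -0.10 to -0.071 for the small subunit and -0.050 to -0.033 for the large subunit. All genes called higher and lower (4755 and 1114) became 2249 and 455 without a filter, 2492 and 2479 under median-ratio scaling, 2350 and 2404 after quantile normalization, 1539 and 1865 under the GC and length adjustment, 2582 and 446 at an FDR of 1%, and 1710 lower with equal sums, and ranged from 1293 to 5484 and from 224 to 1601 with a library left out. The share of FPKM was 5.63, 5.72, 6.33 and 6.23% without the 6 members of under 500 exonic bases, and 6.65, 6.75, 7.55 and 7.45% with second rows, for the libraries rd7 1, rd7 2, wild-type 1 and wild-type 2. Of the 26 members called, Rpl5 was the 1 called in the other direction under any of these alternatives, at -0.17 under the GC and length adjustment. Under that adjustment the sign also turned for Gnb2l1 (-0.23), Larp4 (-0.023), Rpl7 (-0.23), Rpl7l1 (-0.0092), Rps3 (-0.090), Rpl36a (-0.043), Rpl39 (-0.016) and Rps27l (-0.056). It turned under median-ratio scaling for Gnb2l1 (-0.13), Rpl7 (-0.11), Rpl39 (-0.027), Rpl41 (-0.088) and Rps27l (-0.10), after quantile normalization for Gnb2l1 (-0.044), Rpl41 (-0.020) and Rps27l (-0.096), and with equal sums for Gnb2l1 (-0.063), Rpl7 (-0.039), Rpl41 (-0.016) and Rps27l (-0.030). When second rows were added it turned for Rpl26 (-0.18) and Rps23 (-0.15). With each library left out in turn, values near 0 ran across it, for Rpl22 from -0.047 to 0.011, Rpl22l1 from -0.056 to 0.032, Rpl36al from -0.043 to 0.0056, Rpl41 from -0.0013 to 0.13 and Rps27l from -0.0088 to 0.11. With each library left out, the log2 difference of Rpl26 ran from -0.40 (without rd7 replicate 2) to 1.16 (without rd7 replicate 1). The cause of these changes was not tested, except that fits without a filter test more genes and an FDR of 1% is stricter by construction. With a library left out, the calls of all genes changed as well, and the ranges given are not tied to single fits. The ranges of the members therefore cannot show whether their calls were less stable than those of other genes.

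The replicate numbers mark no shared batch in the labels, and the libraries were not treated as paired. Between genotypes, deviations of replicate 1 from the group means correlated at -0.027 over all genes tested and at 0.29 over the 84 members. The fit with a replicate block gave 7 members higher and 15 lower, with a median of -0.064 beside 0.15 over all genes tested. The share of all genes called under the block is not given here, so these counts have no background beside them. Rps23 was called higher under the block, and Rpl3, Rpl5, Rps3, Rpl36 and Rps25 were not called. The numbers of reads at short genes are known only as estimates, so counting error could not be given.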

Other observations

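The 4 members on the X chromosome, Rpl10, Rps4x, Rpl36a and Rpl39, did not overlap between genotypes and were all higher on average in rd7, and 2 of them passed the test. Rpl39, a very short protein of the peptide tunnel, had 425 and 386 FPKM in rd7 and 381 and 361 FPKM in wild-type retinas (log2 difference 0.13, limma adjusted p = 0.159). The sign of Rpl39 turned under median-ratio scaling (-0.03) and the GC and length adjustment (-0.02), and that of Rpl36a under the latter (-0.04). Their median log2 difference was 0.19, against -0.07 for the 80 members on other chromosomes. Over all genes tested on the X chromosome the median was 0.29, and 222 of 422 were higher (52.6%). Both rd7 values lay above both wild-type values in 301 of these 422 genes, and in 57.1% of all genes tested. The pattern was noticed in these data and was not tested, and the pools held males and females in equal number.

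Of the 84 members, 21 hold a small nucleolar RNA row of the table within their locus, 28 such rows in all. These RNAs guide the modification of ribosomal RNA and are cut from introns of their host genes. Their rows were listed at under 8 FPKM in every library, in libraries made from polyadenylated RNA.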
